A study of Mus musculus with 4 samples.

Results

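Cholesterol and fatty acid synthesis was examined through 32 genes, taken by symbol from the 55450 features of the count tables, all of which were present. They are 17 enzymes that lead from acetoacetyl-CoA to cholesterol, 6 genes of SREBP control and sterol transport, and 9 genes of fatty acid synthesis and desaturation. KO tumours grew from cells of the mouse colon carcinoma line MC38 whose Hnrnpa2b1 gene had been knocked out, and WT tumours grew from MC38 cells without the knockout. Both kinds of cells were placed under the skin of the left flank in C57BL/6J mice aged 8 weeks, and the labels give no edit of the mice themselves. There were 2 tumours in each group, with 1 droplet single-cell RNA library per tumour. The labels do not say whether the KO cells were 1 clone or whether each tumour came from a mouse of its own, so p-values measure the spread between these tumours. The position of the edit is not given in the sources used here.

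Cholesterol is built from acetyl-CoA through mevalonate, squalene and lanosterol, and fatty acids are built from acetyl-CoA by carboxylation, chain elongation and desaturation. The SREBP transcription factors switch on most genes of both routes: when membrane sterol is low, SCAP escorts SREBP from the endoplasmic reticulum to be cleaved, and when sterol is high the INSIG proteins hold it back. Tumour cells need both products for membranes, and stearoyl-CoA desaturases supply the monounsaturated fatty acids among them.

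The promoters of the sterol genes are shown as background, because these genes are known SREBP targets. The part of SREBP in the member values was not tested. A window of 250 bases before to 50 bases after each RefSeq start was given for 25 of the 32 genes on GRCm38.p6. The box CCAAT, bound by NF-Y, which acts beside SREBP, was found on either strand in the windows of 20 of these 25 genes (80.0%), against 41.1% of the 27025 genes in the table. The GC box GGGCGG was found in 84.0% of the 25 genes and in 38.2% of all genes. The sterol response element TCACNCCAC was found in 1 of the 25 genes, Hmgcs1, at 137 bases before the start (-137), and in 1.44% of all genes. The E box CACGTG was found in 5 of the 25 genes and in 8.09% of all genes. A gene counted once if any of its windows held the letters on either strand, neighbouring matches can share end letters, and a match is a description of the sequence alone. The 250 bases before the start of Hmgcs1 and of 4 genes with lower values in KO tumours are given below 5' to 3', with matches to CCAAT and to TCACNCCAC on either strand in capitals.
Hmgcs1, chr13:119690101-119690350, plus strand: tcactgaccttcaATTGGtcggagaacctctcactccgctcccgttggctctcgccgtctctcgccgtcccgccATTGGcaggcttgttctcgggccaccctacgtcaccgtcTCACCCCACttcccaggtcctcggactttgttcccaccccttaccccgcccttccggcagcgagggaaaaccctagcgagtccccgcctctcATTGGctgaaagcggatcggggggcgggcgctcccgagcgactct
Idi1, chr13:8885356-8885605, plus strand: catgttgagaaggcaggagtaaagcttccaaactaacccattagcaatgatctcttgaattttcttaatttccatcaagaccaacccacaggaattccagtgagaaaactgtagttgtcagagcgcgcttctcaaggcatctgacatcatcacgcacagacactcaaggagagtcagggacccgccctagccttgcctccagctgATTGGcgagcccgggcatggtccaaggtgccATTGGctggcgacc
Mvd, chr8:122443423-122443672, minus strand: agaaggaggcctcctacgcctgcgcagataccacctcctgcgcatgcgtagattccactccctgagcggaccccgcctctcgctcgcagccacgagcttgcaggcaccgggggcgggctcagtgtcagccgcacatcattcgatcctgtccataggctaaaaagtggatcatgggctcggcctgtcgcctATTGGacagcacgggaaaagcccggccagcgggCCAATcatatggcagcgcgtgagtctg
Msmo1, chr8:64733579-64733828, minus strand: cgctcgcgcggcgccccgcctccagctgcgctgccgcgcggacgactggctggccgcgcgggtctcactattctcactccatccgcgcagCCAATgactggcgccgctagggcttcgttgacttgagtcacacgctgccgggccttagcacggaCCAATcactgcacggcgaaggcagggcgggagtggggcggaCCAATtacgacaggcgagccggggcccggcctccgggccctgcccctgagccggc
Insig1, chr5:28071162-28071411, plus strand: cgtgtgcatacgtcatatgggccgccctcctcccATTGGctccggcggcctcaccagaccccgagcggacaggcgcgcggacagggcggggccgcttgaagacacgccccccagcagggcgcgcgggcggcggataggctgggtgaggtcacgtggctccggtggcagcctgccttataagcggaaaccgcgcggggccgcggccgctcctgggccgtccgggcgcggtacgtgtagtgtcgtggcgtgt
Over the whole window of 300 bases Hmgcs1 carried 4 CCAAT boxes, Msmo1 carried 3, Mvd and Idi1 carried 2 each and Insig1 carried 1. Scd1 and Scd2 were not matched in the table.

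The libraries held 114136609 and 132490304 UMIs (unique molecular identifiers, each 1 captured RNA molecule) for KO, and 153162562 and 123655955 for WT. Cells were clustered together and named from marker genes, and 5 classes had at least 50 cells in every tumour. Tumour cells could not be named from epithelial markers, whose 12 genes summed to 57.0 and 58.8 CPM (UMIs scaled to the same total for each tumour) in KO tumours and to 47.7 and 39.9 CPM in WT tumours. In their place stand Xist-low cells, clusters with under 1 Xist and under 1 Ptprc UMI per 10000, a rule set after the data were seen. KO tumours gave 1366 and 2679 of them and WT tumours 8604 and 7110, with median depths of 38600.5 and 31538 UMIs against 11883 and 11724 UMIs. Between 84 and 100 kept barcodes of each library also occurred in another library. Hnrnpa2b1 itself, on chromosome 6 (GRCm38, minus strand, 51460932 to 51469894), had 359 and 325 CPM in Xist-low cells of KO tumours against 565 and 552 CPM in those of WT tumours. Its log2 fold change was -0.71 (standard error, SE, 0.13; edgeR adjusted p = 0.0272), so the RNA was lower and still present. In host mononuclear phagocytes Hnrnpa2b1 had 402 and 339 CPM against 388 and 427 CPM and did not pass (edgeR adjusted p = 0.744).

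In Xist-low cells 2 stearoyl-CoA desaturases, Scd1 and Scd2, were the only members called, and both were lower in KO tumours. These enzymes put the double bond into stearate and palmitate. No member was called higher. UMIs were summed per tumour and tested with edgeR's quasi-likelihood test, and an adjusted p under 0.05 over all genes counted as a call. Members called were 0 higher and 2 lower of 32, beside 9.38% of all 18010 genes called in either direction (4.59% lower). Taken in either direction, members were not called more often than all genes. Scd1, on chromosome 19 (minus strand, 44394455 to 44407879), had 58.7 and 61.3 CPM in KO tumours against 84.8 and 85.5 CPM in WT tumours. Its log2 fold change was -0.50 (SE 0.10, edgeR adjusted p = 0.0324). Scd2, its neighbour on chromosome 19 (plus strand, 44293674 to 44306864), had 104 and 132 CPM against 180 and 190 CPM, a log2 fold change of -0.65 (SE 0.14, edgeR adjusted p = 0.0397). Both KO tumours lay below both WT tumours for the pair, with KO tumour 1 lowest. The 2 genes are paralogs, and whether reads were shared between them is not given in the sources used here. Another annotated gene overlaps 17 of the 32 members, among them Scd2 (Mir5114, same strand) and Mvd (Gm20388, opposite strand), and how such UMIs were assigned is not given either. Without KO tumour 1, neither passed (Scd1 adjusted p = 0.158, Scd2 adjusted p = 0.197, edgeR), and without KO tumour 2, Scd1 did not (edgeR adjusted p = 0.108). With free RNA subtracted, described below for host cells, both still passed, beside 10.5% of all genes.

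The other 7 fatty acid genes did not pass in Xist-low cells. The upstream enzymes that make and lengthen the chain had log2 fold changes on either side of 0. Acly, which makes cytosolic acetyl-CoA from citrate, had 83.9 and 95.0 CPM in KO tumours against 105 and 100 CPM in WT tumours (log2 fold change -0.20, edgeR adjusted p = 0.284). Fasn, the fatty acid synthase, had 70.1 and 92.5 CPM against 71.5 and 62.4 CPM (0.28, edgeR adjusted p = 0.272), and the groups overlapped. Acaca, the acetyl-CoA carboxylase, and Elovl6, which elongates palmitate to stearate, had log2 fold changes of 0.10 and 0.20. Acss2, which makes acetyl-CoA from acetate, had 3.31 and 2.22 CPM in KO tumours against 3.70 and 4.71 CPM (-0.61, edgeR adjusted p = 0.171). The desaturases of polyunsaturated fatty acids, Fads1 and Fads2, had log2 fold changes of -0.22 and -0.10.

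None of the 17 sterol enzymes passed in Xist-low cells with edgeR. Of the 32 members 9 had an unadjusted p under 0.05, as did 29.6% of all 18010 genes. DESeq2 called 8.48% of 30932 genes, but 15592 of these had no adjusted p and could not be called. The share among genes that could be called, 2624 of which were, was therefore higher, and 8.48% is too low a background for the members. Members called by DESeq2 were 6 lower and 0 higher of 32: Mvd, Idi1, Lss, Insig1, Scd1 and Scd2. No excess of members over all genes is read from this count. Lss, the lanosterol synthase, had 11.1 and 14.7 CPM in KO tumours against 22.3 and 18.6 CPM in WT tumours (log2 fold change -0.66, SE 0.17, edgeR adjusted p = 0.0546). Idi1, which isomerises isopentenyl diphosphate, had 45.1 and 52.7 CPM against 77.0 and 63.3 CPM (-0.52, SE 0.14, edgeR adjusted p = 0.059). Mvd, the mevalonate diphosphate decarboxylase, had 25.3 and 33.0 CPM against 44.4 and 37.9 CPM (-0.50, SE 0.15, edgeR adjusted p = 0.0879). For these 3 genes both KO tumours lay below both WT tumours.

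KO tumour 1 was lower than KO tumour 2 in each of the 17 sterol enzymes, against 48.0% of all genes tested. WT tumour 1 was higher than WT tumour 2 in 15 of the 17, against 49.3% of all genes. Hmgcs1, the HMG-CoA synthase at the head of the mevalonate route, had 100 and 163 CPM in KO tumours against 199 and 172 CPM in WT tumours (log2 fold change -0.50, SE 0.22, edgeR adjusted p = 0.188). Fdps, the farnesyl diphosphate synthase, had 139 and 200 CPM against 191 and 132 CPM, and the groups overlapped. The 17 enzymes summed to 926 and 1208 CPM in KO tumours and to 1314 and 1112 CPM in WT tumours, so KO tumour 2 lay above WT tumour 2. A pair of late enzymes had positive values: Ebp, the sterol isomerase, had 58.1 and 65.1 CPM against 52.1 and 50.3 CPM (0.27, SE 0.11, edgeR adjusted p = 0.153), and Dhcr7, the final reductase, had 33.6 and 40.7 CPM against 32.1 and 29.9 CPM (0.26, SE 0.13, edgeR adjusted p = 0.218). Both KO tumours lay above both WT tumours for this pair, which did not pass. The other 10 enzymes, from Acat2, which makes acetoacetyl-CoA, through Mvk, Pmvk, Fdft1, Sqle, Cyp51, Msmo1, Nsdhl and Hsd17b7 to Sc5d, had log2 fold changes between -0.50 and -0.01 and none passed. Over the 17 enzymes the median log2 fold change was -0.33, over all 32 members -0.22, and over all genes tested -0.01.

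Among the 6 control and transport genes none passed. Insig1, a SREBP target whose protein retains SCAP, came nearest with 28.4 and 39.7 CPM in KO tumours against 54.3 and 52.6 CPM in WT tumours (log2 fold change -0.65, SE 0.16, edgeR adjusted p = 0.0519). Insig2 had 29.3 and 28.8 CPM against 36.0 and 36.1 CPM (-0.31, SE 0.10, edgeR adjusted p = 0.0949). Srebf1 (-0.24), Srebf2 (-0.19) and Stard4 (-0.20), which encodes a sterol carrier, had smaller log2 fold changes, and that of Scap was 0.08. Both KO tumours lay below both WT tumours in 5 of the 6, and over the 32 members in 18 (56.2%), beside 30.5% of all genes tested. Both KO tumours lay above both WT tumours in 2 of 32 members, beside 29.8% of all genes.

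**Figure D1:**
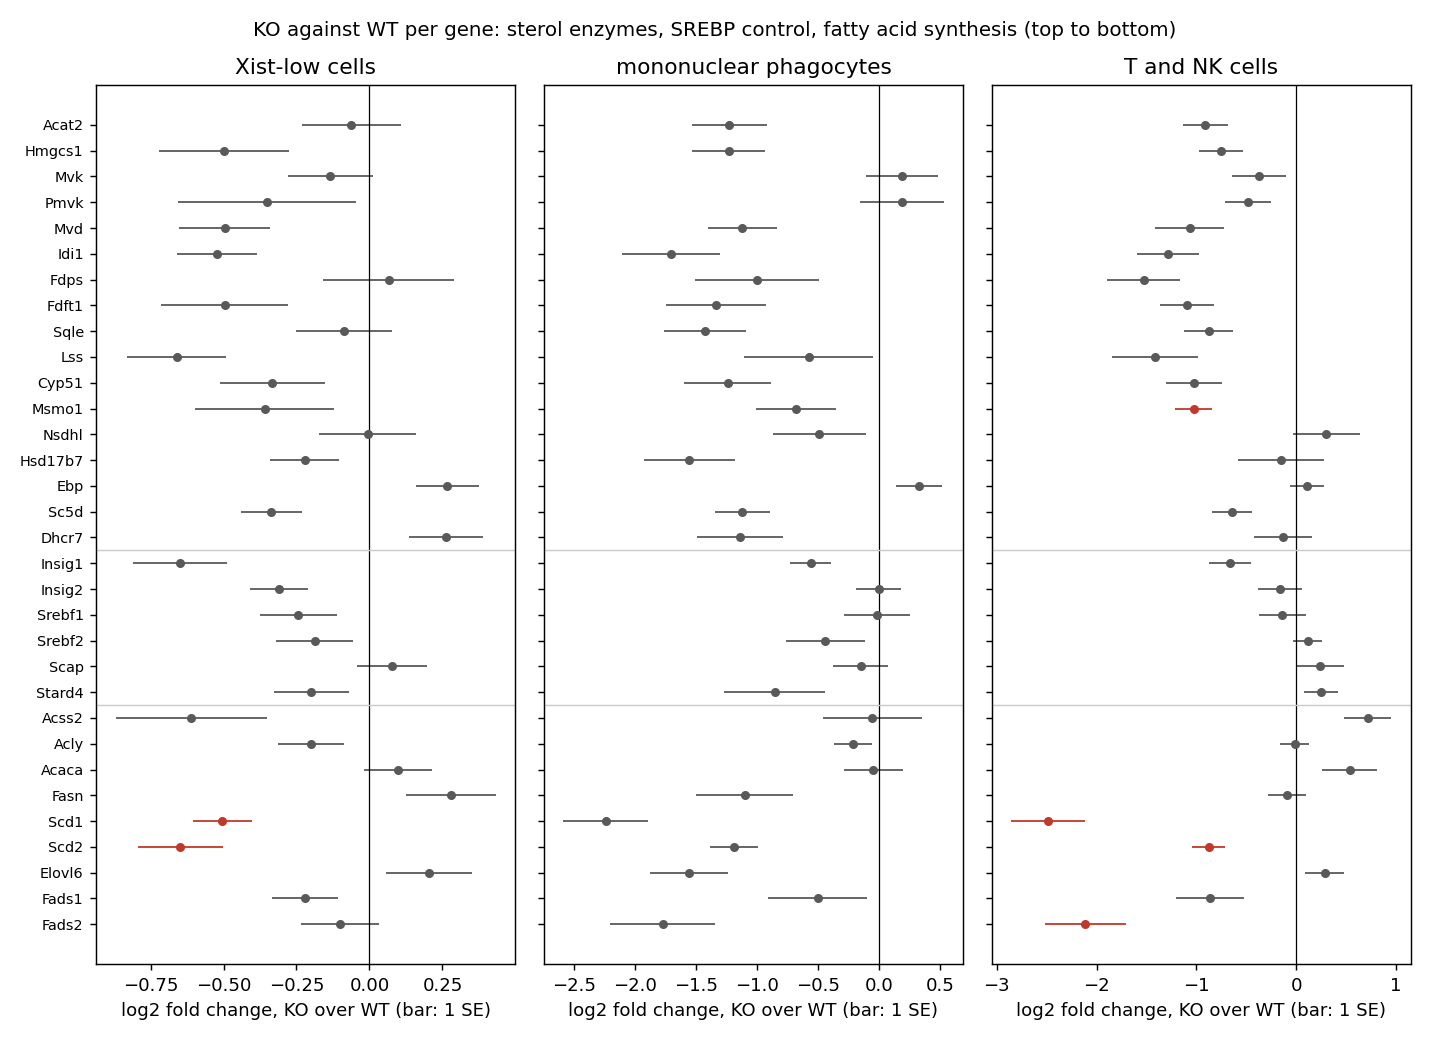
Log2 fold change of KO over WT (x axis) for the 32 members (y axis, by role) in Xist-low cells, mononuclear phagocytes and T and NK cells, each panel with its own x range; points are edgeR estimates, bars 1 SE, and red marks an adjusted p under 0.05. Scd1 and Scd2 are red in Xist-low cells, Msmo1, Scd1, Scd2 and Fads2 in T and NK cells, and none in phagocytes.

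The Xist-low cells of the 2 groups lay mostly in different clusters, so values were also taken within clusters. The cluster led by Gja4, Nppb and Krt16 held 64.2% and 53.8% of Xist-low cells in KO tumours and 1.93% and 5.64% in WT tumours. Within it, 1 member passed and was lower, beside 1.62% of 14822 genes called (0.688% lower). Mvd had 25.1 and 31.6 CPM in KO tumours against 51.4 and 46.6 CPM in WT tumours (log2 fold change -0.77, SE 0.15, edgeR adjusted p = 0.0404), with no overlap. Without KO tumour 1 and without WT tumour 2 it did not pass (edgeR adjusted p = 0.134 and 0.0741). Scd2 there had 98.1 and 123 CPM against 164 and 175 CPM (-0.62, edgeR adjusted p = 0.0606), and Scd1 had 58.4 and 60.6 CPM against 73.1 and 71.5 CPM (-0.28, edgeR adjusted p = 0.218). The median log2 fold change was -0.35 over 32 members and -0.00192 over all genes.

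No member passed in the 3 other clusters that could be tested. The cycling cluster is named here for its leading histone genes and Top2a, and Apol6 and Ubd also led it. The cluster of Btc and Tnnt2 was led by histone genes and Cenpf as well, so cycling is not particular to 1 cluster. It held 38.0% and 11.9% of WT Xist-low cells and, with 25 cells in KO tumour 1, was not tested. In the cycling cluster 6 of 32 members had an unadjusted p under 0.05 with edgeR, as did 11.5% of all genes. The median over members was -0.20. The share called there was 0.0213% of 14056 genes. In 16 of 32 members there both KO tumours lay below both WT tumours, beside 21.4% of all genes. In the cluster led by the interferon-induced gene Ifit3, 5 of 31 members tested had an unadjusted p under 0.05, as did 1968 of 10346 genes, and 0 members were called, beside 1.68% of all genes (0.638% lower). The median over members was 0.01, with both KO tumours below both WT tumours in 10 of 31, beside 25.7% of all genes, and above them in 7. In a cluster of few UMIs led by nuclear and mitochondrial ribosomal RNAs, 3 of 30 had such a p, as did 10.5% of 8001 genes, and 0 were called, beside 1.02% of all genes. There both KO tumours lay below both WT tumours in 16 of the 30, beside 19.9% of all genes. DESeq2 called 0 members in each of these 3 clusters. Scd2 in the Ifit3 cluster had a log2 fold change of -0.70 (edgeR adjusted p = 0.0565). With clusters weighted equally in limma, Scd2 passed at -0.65 (limma adjusted p = 0.0197) and Scd1 did not, at -0.36 (limma adjusted p = 0.141).

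The depth of Xist-low cells differed between the groups, as the medians above show. In cells of 15000 to 30000 UMIs, a window chosen after the data were seen, 0 members passed with edgeR, beside 3.09% of 15569 genes called. An unadjusted p under 0.05 was found with edgeR for 5 of 32 members and for 20.4% of all genes. Median depth still differed in this window, at 23967.5 and 25058 UMIs in KO tumours against 18734 and 19813 in WT tumours. It held 242 of the 1366 Xist-low cells of KO tumour 1, so fewer UMIs stood behind each sum. There Scd1 had a log2 fold change of -0.21 (edgeR adjusted p = 0.468) and Scd2 of -0.47 (edgeR adjusted p = 0.238). DNA synthesis and mitosis genes, 16 in all, reached 3651 and 3524 CPM together in KO Xist-low cells and 2706 and 2654 CPM in WT Xist-low cells, with 4 of 16 called higher. The 10 fibroblast markers summed to 1296 and 800.0 CPM against 1712 and 2243 CPM, with 2 called lower. The 12 T and NK markers summed to 40.5 and 28.2 CPM against 11.8 and 6.29 CPM, with 9 called higher. The part of depth, cycling and other cell types in the desaturase values was not tested.

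In mononuclear phagocytes no member passed with edgeR, where 0.571% of 12775 genes were called. An unadjusted p under 0.05 was found for 16 of 32 members and for 20.1% of all genes. DESeq2 called 2.14% of 24025 genes, of which 12111 had no adjusted p and could not be called. It called 6 members lower: Hmgcs1, Idi1, Sqle, Cyp51, Scd1 and Scd2. Scd2 had 39.5 and 30.1 CPM in KO tumours against 77.1 and 81.9 CPM in WT tumours (log2 fold change -1.19, SE 0.19, edgeR adjusted p = 0.0593). The groups stood well apart, and the estimate of free RNA, which is RNA in the droplet fluid, was 5.15 and 5.47 CPM of Scd2 in KO tumours and 22.7 and 20.03 CPM in WT tumours. Scd1 had 3.44 and 2.16 CPM against 15.7 and 11.2 CPM (-2.24, SE 0.35, edgeR adjusted p = 0.0563), and its free RNA estimate was 2.30 and 2.32 CPM against 10.4 and 8.75 CPM. Measured Scd1 was below 2 times that estimate in every tumour.

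In 17 of 32 members both KO tumours lay below both WT tumours, beside 26.2% of all genes. The sterol enzymes of phagocytes were highest in WT tumour 1. They summed to 254 and 335 CPM in KO tumours and to 619 and 342 CPM in WT tumours, and WT tumour 1 was above WT tumour 2 in 17 of 17, beside 48.7% of all genes. Idi1 had 4.64 and 5.69 CPM in KO tumours against 23.4 and 10.2 CPM in WT tumours (log2 fold change -1.71, SE 0.40, edgeR adjusted p = 0.102). Sqle, the squalene epoxidase, had 8.22 and 14.2 CPM against 36.1 and 23.8 CPM (-1.43, SE 0.34, edgeR adjusted p = 0.104). Sc5d, a late desaturase of the sterol ring, had 7.62 and 7.52 CPM against 18.4 and 14.6 CPM (-1.12, SE 0.23, edgeR adjusted p = 0.0822). After subtraction of free RNA the 17 enzymes summed to 230 and 300 CPM in KO tumours and to 519 and 254 CPM in WT tumours, with WT tumour 2 between the KO tumours. The 16 DNA synthesis and mitosis genes summed to 395 and 631 CPM in phagocytes of KO tumours and to 1184 and 588 CPM in those of WT tumours, highest in the same tumour, and their part was not tested. The class holds different clusters in the groups, mainly one led by Nos2 and Arg1 in KO tumours (1815 and 1249 cells, against 81 and 225). It also leaves out unnamed clusters that carry phagocyte markers, which hold more of the WT cells. The class had 2654 and 2062 cells in KO tumours and 506 and 686 in WT tumours. With those clusters joined it had 3020 and 2313 against 1375 and 1475 cells. No member passed then with edgeR, and the median log2 fold change over members was -0.98, against -0.93 without them.

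In T and NK cells 4 members fell and none rose, beside 3.13% of 12614 genes called (1.37% lower). Msmo1, the sterol C4-methyl oxidase, had 23.0 and 24.0 CPM in KO tumours against 54.2 and 40.7 CPM in WT tumours (log2 fold change -1.03, SE 0.19, edgeR adjusted p = 0.0287). Scd2 had 40.7 and 35.9 CPM against 77.1 and 62.7 CPM (-0.87, SE 0.17, edgeR adjusted p = 0.0327). The groups did not overlap in either. Scd1 had 3.68 and 3.40 CPM against 26.6 and 12.7 CPM (-2.49, SE 0.37, edgeR adjusted p = 0.0168), and Fads2 had 2.05 and 2.41 CPM against 11.7 and 7.34 CPM (-2.11, SE 0.40, edgeR adjusted p = 0.034). The cells of the class lay in different clusters by group: the one led by Cd8a and Ifng held 660 and 654 of them in KO tumours against 82 and 70 in WT tumours, of 2500 and 2607 against 683 and 667 cells in all. Of 5 CD8 markers 2 were called higher, and 1 of 7 NK and 1 of 6 gamma-delta markers lower. The part of this mix in the member values was not tested. DESeq2 called these 4 members and Fdps, beside 1.53% of 24125 genes, of which 13096 had no adjusted p and could not be called. Scd1 and Fads2 were also without overlap, and low in every tumour beside their levels in Xist-low cells.

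Free RNA was also estimated to be higher in WT tumours than in KO tumours. Its estimated share of T and NK UMIs was 7.85% and 7.21% in KO tumours and 21.7% and 10.9% in WT tumours. The estimate for Scd1 was 2.88 and 3.22 CPM in KO tumours and 16.6 and 8.53 CPM in WT tumours, beside measured levels, without TMM scaling, of 3.84 and 3.43 CPM and of 28.0 and 11.3 CPM. For Fads2 it was 1.75 and 2.39 CPM and 8.72 and 4.16 CPM. Scd1, Fads2 and Fdps were below 2 times the estimate in all 4 libraries of T and NK cells, and Scd1, Fads2 and Elovl6 in all 4 of phagocytes. Msmo1 and Scd2 were not among such members in either class. After subtraction no member passed in T and NK cells, where 0.693% of genes were called. Fads2 was not among the members tested there, so its call was not retested. An unadjusted p under 0.05 was then found for 9 of 31 members and for 16.4% of all genes. Scd1 then had a log2 fold change of -3.77 (edgeR adjusted p = 0.0841), Scd2 of -0.60 (edgeR adjusted p = 0.175) and Msmo1 of -0.60 (edgeR adjusted p = 0.217). Without WT tumour 1, 1 member passed, Scd1 (-1.82, edgeR adjusted p = 0.0405), and Msmo1, Scd2 and Fads2 did not (edgeR adjusted p = 0.0738, 0.0677 and 0.141). Without KO tumour 1 these 3 had adjusted p of 0.055, 0.0642 and 0.199 with edgeR, and without KO tumour 2 of 0.0932, 0.239 and 0.207.

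**Figure D2:**
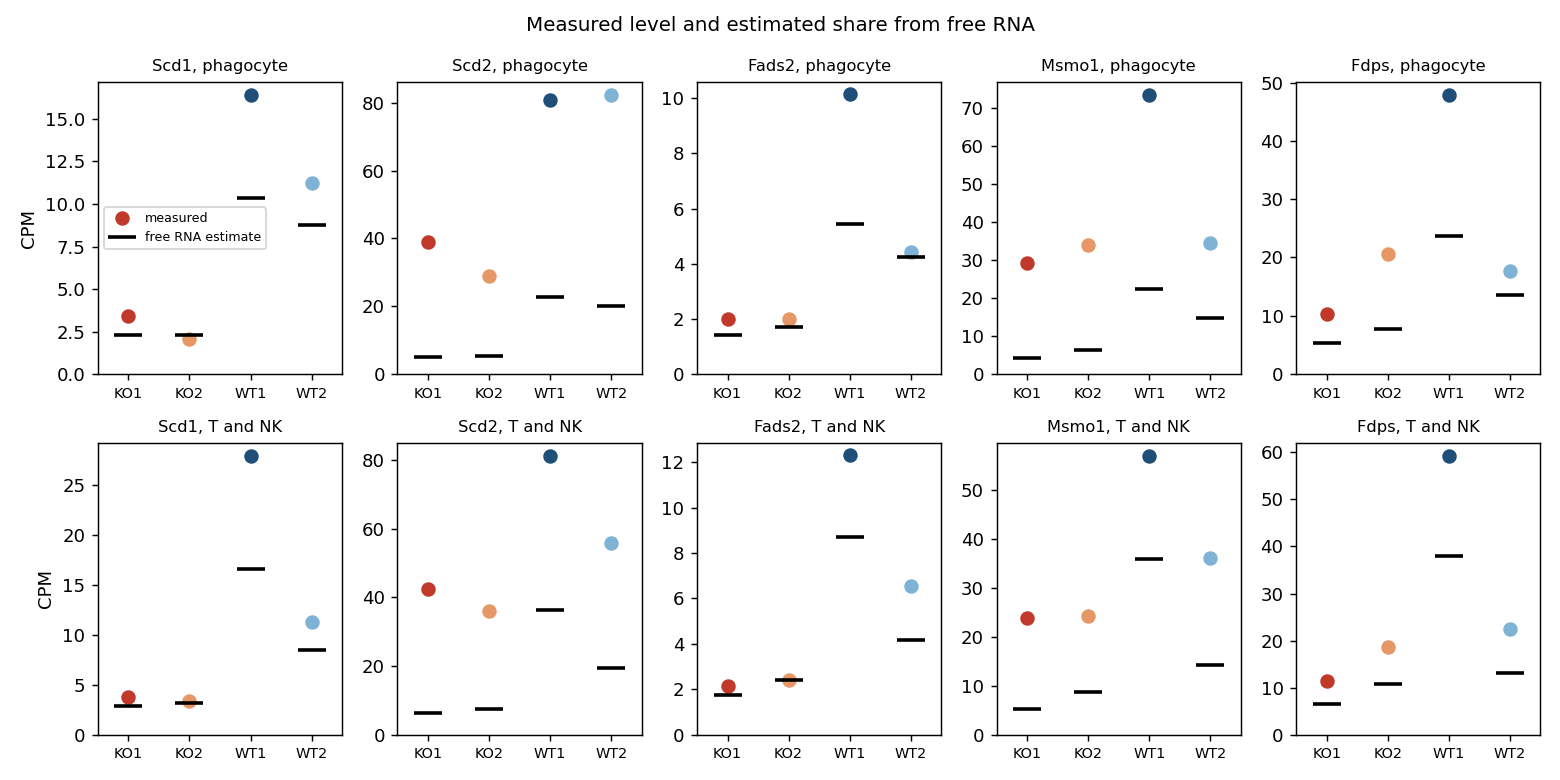
Measured level (points, CPM of summed UMIs) and the part estimated to be free RNA (black bars) of 5 members in mononuclear phagocytes (upper row) and T and NK cells (lower row), by tumour; each panel has its own y axis from 0. Scd1 and Fads2 lie near the bars in KO tumours, whereas Scd2 lies above them in all 4 tumours.

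The other T and NK members did not pass. Over the 17 sterol enzymes the median log2 fold change was -0.87, with 13 of 17 lower in both KO tumours than in both WT tumours, beside 25.5% of all genes. Idi1 had 8.51 and 8.23 CPM in KO tumours against 26.6 and 13.3 CPM in WT tumours (-1.28, SE 0.31, edgeR adjusted p = 0.0615). Acss2 had 22.4 and 21.2 CPM against 15.4 and 10.7 CPM (0.72, SE 0.24, edgeR adjusted p = 0.126), with both KO tumours above both WT tumours. Srebf2, Scap and Stard4 had log2 fold changes of 0.12, 0.24 and 0.25, and none passed. DNA synthesis and mitosis genes summed to 1287 and 1158 CPM in T and NK cells of KO tumours and to 2066 and 945 CPM in those of WT tumours, and their part was not tested.

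In neutrophils 7 of the 32 members were above the low-count filter and none passed, beside 0.0% of 4692 genes. With edgeR 1 member had an unadjusted p under 0.05, as did 14.5% of all genes: Scd2, with 13.8 and 25.6 CPM in KO tumours against 108 and 63.7 CPM in WT tumours (log2 fold change -2.05, SE 0.50, edgeR adjusted p = 0.0723). WT tumour 1 held 50 neutrophils, which limits its precision. Both KO tumours lay below both WT tumours in 5 of the 7, beside 24.2% of all genes. In fibroblasts none of 32 passed, beside 0.0% of 11551 genes, and 5 had an unadjusted p under 0.05, as did 14.0% of all genes. Scd1 had 20.3 and 19.1 CPM against 48.5 and 48.9 CPM (-1.30, SE 0.18, edgeR adjusted p = 0.16), with tight replicates and no overlap. Such a split was found in 7 of 32 members, beside 23.9% of all genes. DESeq2 called 0 members in either class. The sterol enzymes of fibroblasts summed to 254 and 709 CPM in KO tumours and to 1062 and 535 CPM in WT tumours, and KO tumour 1 was lower than KO tumour 2 in 17 of 17, beside 54.2% of all genes. After subtraction of free RNA the sums were 216 and 694 CPM against 1030 and 338 CPM. The class mixes 2 clusters, and the one led by Tnc and Col12a1 held 89 and 203 fibroblasts in KO tumours against 160 and 80 in WT tumours, while the one led by Efemp1 held 290 and 62 against 40 and 188. The part of this mix in the sums was not tested.

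**Figure D3:**
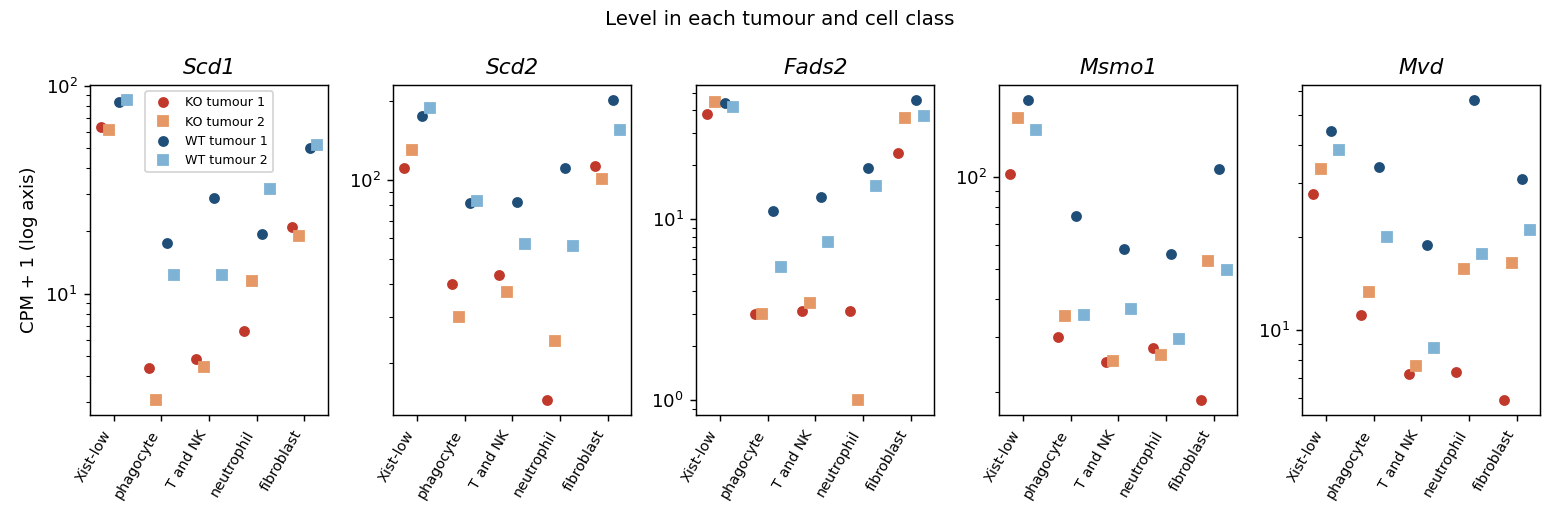
Level of the 5 members called in any class or cluster (CPM of summed UMIs plus 1, log axis) in 5 cell classes, with KO tumours left of WT tumours and 1 point per tumour. Scd2 lies lower in both KO tumours than in both WT tumours in every class shown, while Msmo1 and Mvd vary as much within groups as between them in several.

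The highest and the lowest tumour in sterol enzymes were the same across cell classes, but the order between them was not. KO tumour 2 lay above WT tumour 2 in Xist-low cells and fibroblasts. It lay below WT tumour 2 in phagocytes (335 against 342 CPM), T and NK cells and neutrophils. Xist-low cells, phagocytes, T and NK cells, neutrophils and fibroblasts all had their highest sum in WT tumour 1 and their lowest in KO tumour 1. WT tumour 1 also had the highest share of free RNA in Xist-low cells, phagocytes, T and NK cells and neutrophils. After subtraction WT tumour 1 still had the highest sum in the 5 classes, and KO tumour 1 the lowest in Xist-low cells, phagocytes, T and NK cells and fibroblasts. In T and NK cells the sums were then 249 and 259 CPM in KO tumours and 368 and 250 CPM in WT tumours. KO tumour 2 thus lay above WT tumour 2 there and in phagocytes (300 against 254 CPM) after subtraction. Neutrophils kept the other order (119 against 148 CPM). Fatty acid genes of Xist-low cells reached 492 and 544 CPM together in KO tumours and 595 and 591 CPM in WT tumours.

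Across states and host cells the sums are a description, since the clusters were made from the same cells. None of the 32 members was among the 2000 variable genes used for clustering. In KO tumours the sterol enzymes summed to 905 and 1183 CPM in the Gja4 cluster, 1068 and 1268 CPM in the cycling cluster and 685 and 934 CPM in the Ifit3 cluster. In WT tumours they summed to 1498 and 1267 CPM in the Gja4 cluster, 1397 and 1307 CPM in the cycling cluster, 785 and 681 CPM in the Ifit3 cluster and 791 and 756 CPM in the cluster led by Lbp and Prelp. Among the Gja4, cycling and Ifit3 clusters, the Ifit3 cluster was the lowest in all 4 tumours for 25 of 32 members, 15 of them sterol enzymes, and for 14.0% of the 10342 genes tested in these 3. Over all 8 clusters it was the lowest in both WT tumours for 9 of 32, among them 4 sterol enzymes. Among the same 3 clusters, the cycling cluster was the highest in all 4 tumours for 7 of 32 and for 11.1% of those genes. The Btc and Tnnt2 cluster, also led by histone genes, was not in that comparison. Among host cells, dendritic cells of the KO tumours had 475 and 567 CPM of sterol enzymes against 964 CPM in WT tumour 1, and WT tumour 2 held only 41 dendritic cells.

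**Figure D4:**
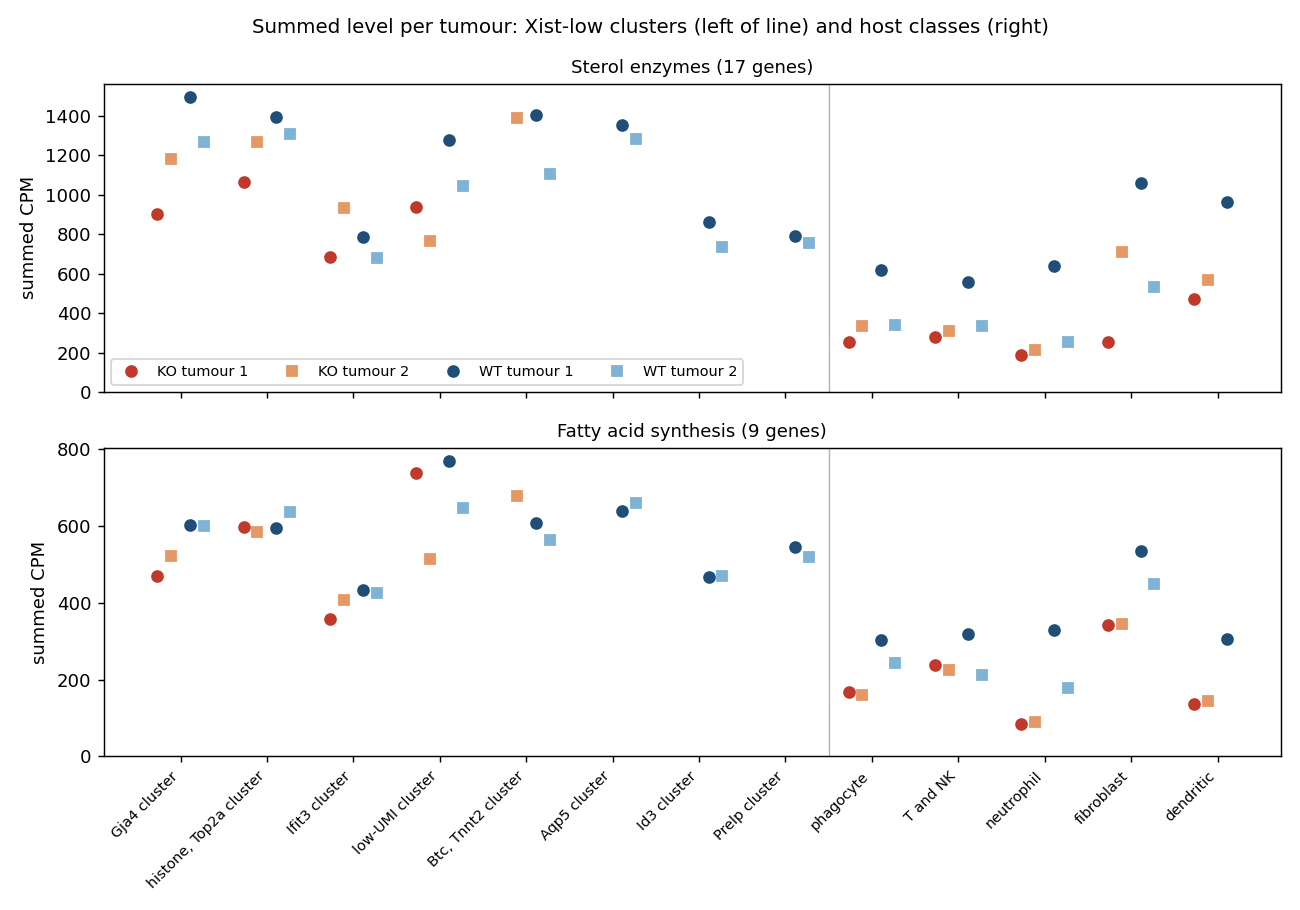
Summed CPM (y axis, from 0) of the 17 sterol enzymes (upper) and 9 fatty acid genes (lower) in each Xist-low cluster and host class (x axis), 1 point per tumour with at least 50 cells. The Ifit3 cluster lies below the Gja4 and cycling clusters in every tumour, and KO tumour 1 is the lowest point in the Gja4 and cycling clusters for the sterol enzymes.

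The difference in KO effect between Xist-low cells and a host class was tested with the tumour as a block. Against phagocytes 6 members differed, beside 4.13% of 17642 genes called, each with a higher log2 fold change in Xist-low cells: Acat2, Sqle, Dhcr7, Scd1, Elovl6 and Fads2. Against T and NK cells 4 differed, beside 7.54% of 17990 genes: Fdps, Scd1 and Fads2, with a higher log2 fold change in Xist-low cells, and Acss2, with a lower one. Against neutrophils and fibroblasts none did, beside 0.191% of 16207 and 2.02% of 17419 genes. After subtraction of free RNA 0 members differed against phagocytes and 2 against T and NK cells, Fdps and Scd1. Without WT tumour 1, 0 differed against phagocytes.

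Genes of neighbouring routes were taken from 5 lists. In Xist-low cells 1 of 10 other sterol and isoprenoid enzymes rose and none fell, 0 of 13 other SREBP and LXR regulators passed, 1 of 14 uptake, efflux and storage genes rose and 2 fell (Lipa and Lrp1), 2 of 20 lipid assembly genes rose and 1 fell, and 0 of 17 fatty acid oxidation genes passed, beside the 9.38% of all genes called there. Dgat2, which makes triglyceride, had 1.74 and 1.67 CPM in KO tumours against 0.835 and 0.656 CPM in WT tumours (log2 fold change 1.19, edgeR adjusted p = 0.0415). Acsl1, a long-chain acyl-CoA synthetase, had 44.0 and 51.9 CPM against 28.9 and 25.7 CPM (0.81, edgeR adjusted p = 0.019), and Lpin1, a phosphatidate phosphatase, had 5.79 and 6.98 CPM against 11.6 and 11.8 CPM (-0.87, edgeR adjusted p = 0.0241). The groups did not overlap in these. Pdss1, of ubiquinone side-chain synthesis, rose by 0.66 and Npc1, the lysosomal cholesterol exporter, by 0.53 on the log2 scale, and Lipa, the lysosomal acid lipase, fell by 0.55 (edgeR adjusted p = 0.028, 0.0414 and 0.0444). In phagocytes 1 of the genes tested passed, Dgat1, with 74.1 and 62.5 CPM in KO tumours against 25.7 and 20.4 CPM in WT tumours (1.57, edgeR adjusted p = 0.0479). No gene at all passed in phagocytes after subtraction of free RNA, or with the unnamed phagocyte clusters joined to the class (edgeR, 1725 and 2508 genes with an unadjusted p under 0.05), so neither did Dgat1. In T and NK cells Dgat1 and Apoe passed with higher and Vldlr with lower values in KO tumours, beside the 3.13% of all genes called there. Dgat1 had 331 and 338 CPM against 112 and 146 CPM. Apoe had 344 and 332 CPM against 198 and 149 CPM, beside 5323 and 7858 CPM against 12555 and 8425 CPM in phagocytes, and the 12 phagocyte markers in the same cells summed to 1728 and 1551 CPM against 1013 and 1097 CPM. Vldlr had 0.982 and 1.32 CPM against 8.50 and 5.34 CPM, low beside its level in Xist-low cells (24.5 and 28.5 CPM against 32.5 and 36.2 CPM). The part of phagocyte RNA and free RNA in these values was not tested. No gene of these lists passed in neutrophils or fibroblasts with edgeR.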

How the data were processed

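Single-cell RNA libraries of 4 tumours were used, 2 KO and 2 WT. The deposited files hold whole-number UMI counts per gene and barcode. For alignment to mm10 the labels' protocols give Cell Ranger 5.0.1, and version 6.1.2 stands in the file headers. Seurat 5.1.0 appears without a role among the submitters' processing notes. The members and gene lists were chosen with earlier results of these data known.

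Barcodes under 300 genes or 500 UMIs, or with over 20% mitochondrial UMIs, were left out. The highest Scrublet doublet scores were removed at 0.8% per 1000 barcodes (715 and 728 barcodes in KO tumours, 1288 and 1043 in WT tumours), since Scrublet's own threshold marked 0.0% in WT tumour 1. This left 8648 and 8771 cells in KO tumours and 11344 and 10173 in WT tumours. Cells were clustered on 2000 variable genes (scanpy 1.11.5, leidenalg 0.10.2, Python 3.11.15) and named from marker lists. Sums of counts for each class in each tumour were tested with edgeR 4.0.16 (R 4.3.3; TMM, filterByExpr, quasi-likelihood test, two-sided, Benjamini-Hochberg over all genes, threshold 0.05). CPM given with a fold change are TMM scaled, and summed CPM and free RNA comparisons are not. Alternatives used DESeq2 1.42.0 and limma 3.58.1. Free RNA was estimated per class and tumour from markers of other cell types, without empty droplets, so it is not a measured level. Its profile was the sum of all cells analysed in the library. Its share was the lowest ratio of class level to library level among marker lists of other classes. The list that gave the lowest ratio differed between tumours in fibroblasts and neutrophils. The scripts were tested on simulated data. With 2 tumours a group the smallest exact permutation p is 0.333, so none was used. Nothing in the labels says that tumours with the same number share anything.

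Named genes are members past the threshold in any class or cluster, then at most the 6 other pathway genes with the largest change past it in Xist-low cells and in phagocytes, and Hnrnpa2b1. Other members named were chosen after their values were seen.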

Additional observations from a re-analysis of the deposited data

Results flagged for a closer look

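The KO effect (log2 fold change, KO over WT) differed between Xist-low cells and a host class for 10 pairs of member and class, by edgeR's test of the interaction with the tumour as a block. Against phagocytes the effect was higher in Xist-low cells by 1.10 for Acat2, 1.31 for Sqle, 1.35 for Dhcr7, 1.69 for Scd1, 1.71 for Elovl6 and 1.61 for Fads2. None of these 6 passed without WT tumour 1 or after subtraction of free RNA, where adjusted p ranged up to 0.432. Against T and NK cells it was higher in Xist-low cells by 1.57 for Fdps, 1.99 for Scd1 and 2.01 for Fads2, and lower for Acss2 (-1.33). Fdps and Scd1 passed in all 10 alternatives, with differences of 1.09 to 1.73 and 1.24 to 3.27 and adjusted p of at most 0.0137 and 0.0497. Measured Scd1, Fads2 and Fdps in T and NK cells were below 2 times the free RNA estimate in all 4 tumours, and the part of free RNA in these differences was tested only by its subtraction.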

How the results depend on the processing

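Genes called by edgeR were 1689 in Xist-low cells, 73 in phagocytes, 395 in T and NK cells and 0 in neutrophils and fibroblasts, and members called were 2, 0, 4, 0 and 0. No named result reversed. DESeq2 called 2624 genes and 6 members in Xist-low cells and 514 and 6 in phagocytes. It called 165 genes in fibroblasts, and 307 genes and 4 members in the Gja4 cluster. Without a low-count filter there were 3871 genes and 10 members in Xist-low cells, 1660 and 16 in phagocytes, 1682 and 14 in T and NK cells, 26 genes in neutrophils and 905 and 6 in fibroblasts, with 12, 8 and 7 members differing from Xist-low cells in phagocytes, T and NK cells and fibroblasts. Without TMM there were 43 genes in phagocytes, 2 members in T and NK cells and 1 member differing in fibroblasts; higher and lower calls were then 889 and 492 in Xist-low cells (862 and 827 with TMM) and 265 and 128 in T and NK cells (222 and 173). Deviations from the group mean had correlations of -0.59 to -0.01 between same-numbered tumours and of 0.01 to 0.59 between crossed ones. With 2 tumours a group the 1 set is the negative of the other. These correlations therefore cannot show whether the numbers pair the tumours. With the replicate number as a block there were 86 genes (0.673%) and 1 member in phagocytes and 585 genes (4.64%) and 7 members in T and NK cells. The same block gave 609 genes (4.11%) and 7 members in the Gja4 cluster and 61 genes in neutrophils. Scd1 in Xist-low cells then did not pass (-0.51, edgeR adjusted p = 0.0828). The crossed block, chosen after seeing the data, gave 4410 genes and 14 members in Xist-low cells, 1652 and 17 in phagocytes, 27 and 1 in neutrophils and 1194 and 7 in fibroblasts. With doublets kept there were 1435 genes and 14 members in phagocytes, 1257 and 9 in T and NK cells, 4 genes in neutrophils, and 14 and 9 members differing in phagocytes and T and NK cells. Cells of at least 1000 genes gave 654 genes and 8 members in T and NK cells, and resolution 2.0 gave 121 genes in phagocytes. Joining unnamed phagocyte clusters, chosen after seeing the data, gave 0 genes. Subtracting free RNA gave 0 genes in phagocytes, 83 genes and 0 members in T and NK cells, and 0 and 2 members differing. Cells of 15000 to 30000 UMIs gave 481 genes and 0 members in Xist-low cells, and equal weights of clusters 442 and 1. Leaving out 1 tumour gave 1013 to 3163 genes and 0 to 8 members in Xist-low cells, 158 to 1242 and 0 to 17 in phagocytes, 137 to 2502 and 1 to 15 in T and NK cells, and 0 to 313 and 0 to 1 in neutrophils. It gave 0 to 2, 0 to 9 and 0 to 2 members in the cycling, Gja4 and Ifit3 clusters, and 0 to 13, 3 to 8 and 0 to 6 members differing in phagocytes, T and NK cells and fibroblasts. The lone tumour of a group is then assumed to vary like the other group. The cause of these changes was not tested. A count of members given here without the number of genes called in the same fit cannot be set against the share of all genes. That holds for every count of members differing. Depth limits the neutrophils most, with 54611 UMIs in WT tumour 1.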
